A study of Mus musculus with 6 samples.

Results

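Genes of protein folding, quality control and stress signalling in the endoplasmic reticulum were followed across mouse hearts on 6 Illumina bead arrays. The set held 31 genes, taken by symbol, out of 19053 genes named by the probes of the table. Each gene was read from its brightest probe, by the mean of log2 intensity over the arrays. Of the 31 genes, 30 had a probe named for them, 25 lay above the intensity filter and were tested, 5 lay below it (Hspa5, Manf, Canx, Atf6 and Derl1), and Dnajb11 had no probe under its symbol.

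The hearts came from JMJD2A-transgenic and wild-type mice of the FVB background, 3 weeks after TAC or sham surgery. TAC is constriction of the thoracic aorta, which loads the left ventricle with pressure. The groups were transgenic TAC (2 arrays), transgenic sham (1 array), wild-type TAC (2 arrays) and wild-type sham (1 array). JMJD2A is a histone lysine demethylase encoded by Kdm4a; its transgene is described as heart specific, with no promoter named in the labels. The age is 8 weeks in the sample labels and is given in years in the design text. Whether each array stands for its own animal or for pooled RNA is unstated. The p-values therefore cover only the spread between these samples, which may be technical.

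Secreted and membrane proteins enter the endoplasmic reticulum through the Sec61 channel, fold with the help of chaperones, and gain their disulfide bonds from protein disulfide isomerases. When unfolded protein builds up, the sensors IRE1, PERK and ATF6 start the unfolded protein response, which raises chaperone and degradation genes and slows translation. Proteins that fail to fold are drawn back across the membrane and degraded. In a heart under pressure load, cardiomyocytes make more membrane protein and fibroblasts secrete more collagen, and both pass through this compartment.

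Several of these genes carry short promoter sequences by which the response is known to act, and the stretches around them are shown for 8 genes described here. RefSeq promoter windows (build GRCm38.p6, from 250 bases before to 50 bases after the start of transcription) were found for 27 of the 31 genes; Atf6, Derl1, Hyou1 and Manf were not among them. The endoplasmic reticulum stress element was searched as CCAAT, then 9 bases of any kind, then CCACG, on both strands. It stood in the windows of 8 of the 27 genes (29.6%): Hspa5, Hsp90b1, Calr, Canx, Creld2, Dnajc3, Pdia6 and Syvn1. It stood in 37 of 27025 genes with a window (0.137%). The set was chosen as genes of this response, so its higher share is not an independent result, here or for the related element below. The sequences read along the gene's strand, 5′ to 3′, with 15 bases on each side and the element in capitals.
Hspa5 (chr2:34772010-34772058, + strand): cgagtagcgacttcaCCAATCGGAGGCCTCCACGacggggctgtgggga
Hsp90b1 (chr10:86705623-86705671, - strand): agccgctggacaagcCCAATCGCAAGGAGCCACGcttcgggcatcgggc
Dnajc3 (chr14:118937812-118937860, + strand): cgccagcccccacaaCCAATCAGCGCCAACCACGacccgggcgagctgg
Pdia6 (chr12:17266476-17266524, + strand): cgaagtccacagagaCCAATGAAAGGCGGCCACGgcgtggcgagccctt
Syvn1 (chr19:6046517-6046565, + strand): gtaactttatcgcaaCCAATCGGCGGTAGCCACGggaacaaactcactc
Calr (chr8:84847060-84847108, - strand): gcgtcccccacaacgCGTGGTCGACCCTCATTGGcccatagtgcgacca
Creld2 (chr15:88819505-88819553, + strand): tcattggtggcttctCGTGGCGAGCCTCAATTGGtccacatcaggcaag
Herpud1 (chr8:94386362-94386402, + strand): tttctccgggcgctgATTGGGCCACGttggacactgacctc

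In Calr and Creld2 the element lies on the opposite strand, so the capitals show its reverse complement. The element began at position -65 from the start of transcription in Hspa5, at -44 in Syvn1 and at -162 in Calr, and Hsp90b1 held a second one. Herpud1 is shown for the related element II, searched as ATTGG, 1 base, CCACG, which began at -52 and was held by 2 of the 27 genes (7.41%), Herpud1 and Dnajb11, against 12 of 27025 genes (0.0444%). The core TGACGTG, bound by XBP1 and ATF6, was found in Hspa5 alone of the 27 (3.70%) and in 2.22% of all genes. A composite element of the factors CHOP and ATF4, searched as TGATG, 1 base, AA, was found in Herpud1 and Trib3 (7.41%) and in 4.51% of all genes; in Trib3 it begins after the start of transcription and is not shown. A match is a run of letters and does not show that a factor binds there.

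Values below are log2 of the deposited intensity, given on each array. The cardiomyocyte markers were bright on all 6 arrays, with a summed linear intensity of 145760 to 157525 over 11 genes, as the label of heart tissue implies. Their B cell and plasma cell counterparts summed to 522 to 589 over 9 genes, and Ms4a1, Pou2af1, Tnfrsf17, Prdm1 and Sdc1 were below the filter. Xist, the RNA of the inactive X chromosome, stood apart on 2 arrays: it was 5.41 in transgenic sham and 5.38 in wild-type TAC 2, against 10.36 to 11.03 on the other 4. The labels give no sex, and within transgenic arrays, where the only sham array is the one with low Xist, sex and surgery cannot be told apart. The Kdm4a probes do not check the genotype labels, because their place relative to the transgene is not given. The transgenic TAC arrays differed from each other with an SD of the log2 difference of 0.391 over tested genes, and the wild-type TAC arrays with 0.252.

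The range of the 25 tested genes over the 6 arrays had a median of 0.519 on the log2 scale, between 0.181 and 0.914, against a median of 0.466 over all 11166 tested genes. The widest range was that of Trib3. In a whole heart, a lower level can mean fewer cells of a type or less RNA per cell, and these cannot be told apart.

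**Figure D1:**
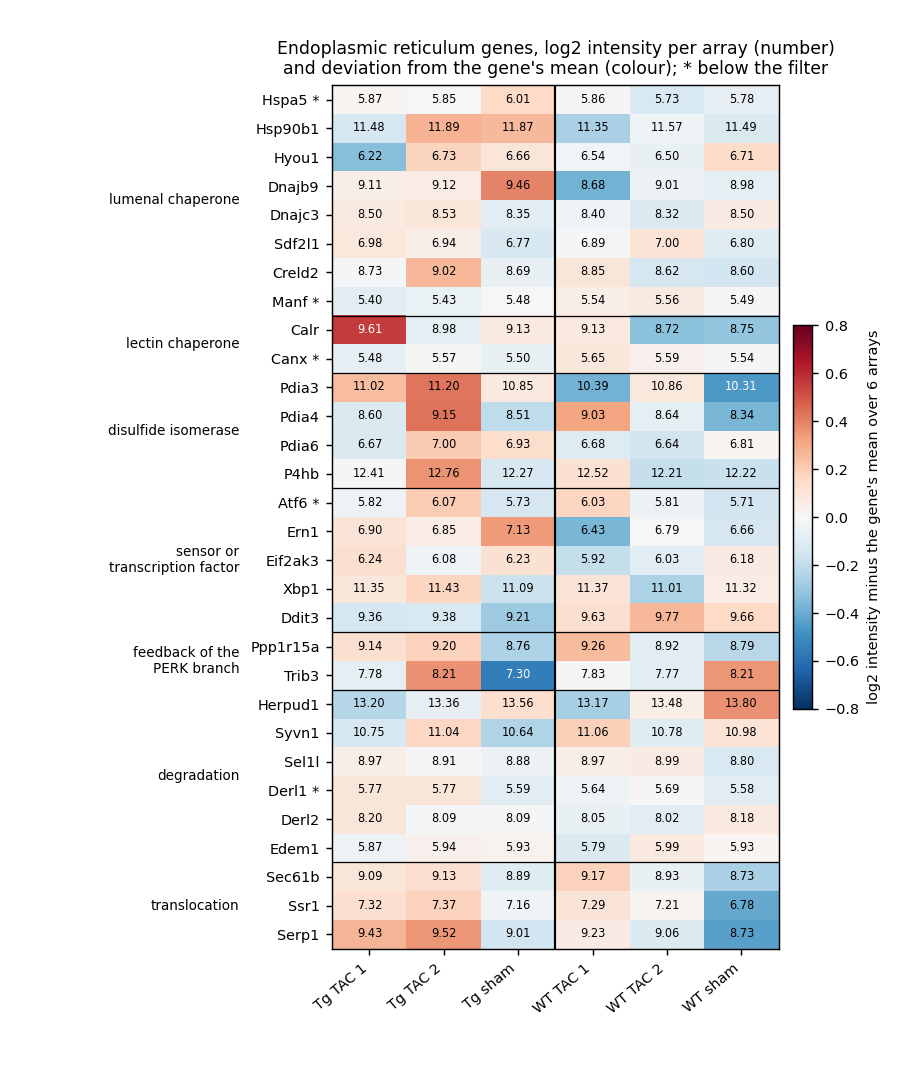
Log2 intensity of the 30 endoplasmic reticulum genes with a probe on each array (number in the cell), with colour for the deviation from the gene's mean over 6 arrays; Tg is transgenic, WT is wild type and an asterisk marks genes below the intensity filter. Deep colours are few: Calr at 9.61 in transgenic TAC 1, Trib3 at 7.30 in transgenic sham, and Pdia3 at 10.31 in wild-type sham are among the cells farthest from their gene's mean.

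The first question was whether hearts with the JMJD2A transgene differed from wild-type hearts. In limma's fit of surgery plus genotype over 3 transgenic and 3 wild-type arrays, 0 of the 25 genes passed an adjusted p of 0.05, against 106 of 11166 genes (0.949%). An unadjusted p under 0.05 was reached by 5 of them (20.0%), against 11.5% of all tested genes. Pdia3, Ern1, Serp1 and Dnajb9 were higher in transgenic hearts and Ddit3 was lower. The 25 genes had a median log2 difference of 0.08, with 19 higher and 6 lower, and all tested genes one of -0.01, with 5310 higher and 5856 lower. All 25 intervals of 95% lay between -0.70 and 0.84 on the log2 scale.

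Pdia3 encodes ERp57, the disulfide isomerase that works with calnexin and calreticulin on glycoproteins. It stood at 11.02 and 11.20 in transgenic TAC and 10.85 in transgenic sham, against 10.39 and 10.86 in wild-type TAC and 10.31 in wild-type sham. Wild-type TAC 2 lay just above the transgenic sham array, so the groups overlapped by 1 array. The log2 difference was 0.50 ± 0.15 (SE, 95% interval 0.17 to 0.84), or 1.42-fold, with a limma adjusted p of 0.200. It was the smallest p among the 25 genes. Without both low-Xist arrays the difference was 0.71, which is the transgenic TAC pair against wild-type TAC 1 only. The other isomerases, Pdia4, Pdia6 and P4hb, were also higher on average, and the 4 had a median difference of 0.16.

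Ddit3 encodes CHOP, the transcription factor that PERK signalling raises through ATF4 and that is linked to cell death. It was at 9.36 and 9.38 in transgenic TAC and 9.21 in transgenic sham, against 9.63 and 9.77 in wild-type TAC and 9.66 in wild-type sham. All 3 transgenic arrays lay below all 3 wild-type arrays. The log2 difference was -0.37 ± 0.13 (SE, 95% interval -0.66 to -0.08), or 0.773-fold, with a limma adjusted p of 0.302. A second, dimmer Ddit3 probe gave -0.27, with overlapping arrays.

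Of the 4 tested sensor and transcription factor genes, 3 were higher in transgenic hearts and 1, Ddit3, was lower. Ern1 encodes IRE1 alpha, the kinase and RNase that splices Xbp1 mRNA. It stood at 6.90 and 6.85 in transgenic TAC and 7.13 in transgenic sham, against 6.43 and 6.79 in wild-type TAC and 6.66 in wild-type sham. The groups did not overlap, and the log2 difference was 0.34 ± 0.14 (SE, limma adjusted p = 0.394). Its second probe, near the filter, gave -0.03, so the difference rests on 1 probe.

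Xbp1, whose spliced mRNA makes the main transcription factor of the IRE1 branch, was at 11.35 and 11.43 in transgenic TAC and 11.09 in transgenic sham, against 11.37 and 11.01 in wild-type TAC and 11.32 in wild-type sham. The groups overlapped over most of their range, and its log2 difference was 0.06 ± 0.14 (SE), with a limma adjusted p of 0.924. The arrays measure the Xbp1 transcript as a whole, so splicing is not read here. Eif2ak3 encodes PERK, the kinase that slows translation through eIF2 alpha; it was at 6.24 and 6.08 in transgenic TAC and 6.23 in transgenic sham, against 5.92 and 6.03 in wild-type TAC and 6.18 in wild-type sham. The difference was 0.14 ± 0.10 (SE, limma adjusted p = 0.635). Atf6, the third sensor, had a mean of 5.86 and lay just below the filter at 5.88, with Edem1, at 5.91, just above it.

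Among the chaperones of the lumen, Hspa5 could not be read. It encodes BiP, the Hsp70 chaperone that also holds the sensors inactive, and its 1 probe gave 5.87 and 5.85 in transgenic TAC and 6.01 in transgenic sham, against 5.86 and 5.73 in wild-type TAC and 5.78 in wild-type sham. The median of all probes on the array was 5.82, so these values lie near background. Their mean is below the filter at 5.88, with transgenic sham alone above it, and they give no level of BiP. Of the 6 tested lumenal chaperones, 4 were higher in transgenic hearts and 2 were lower, with a median of 0.09.

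Dnajb9 encodes ERdj4, a cochaperone of BiP. It stood at 9.11 and 9.12 in transgenic TAC and 9.46 in transgenic sham, against 8.68 and 9.01 in wild-type TAC and 8.98 in wild-type sham. All transgenic arrays were above all wild-type arrays, and the log2 difference was 0.34 ± 0.15 (SE, limma adjusted p = 0.427). A second probe gave 0.38 in the same direction. Hsp90b1, the Grp94 chaperone, and Calr, the calcium-binding calreticulin, differed by 0.27 ± 0.14 and 0.37 ± 0.19 (SE) with overlapping arrays and limma adjusted p of 0.518 and 0.524. Arrays of the groups did not overlap for 3 of the 25 genes (12%), Dnajb9 and Ern1 higher and Ddit3 lower, against 16.1% of all tested genes.

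**Figure D2:**
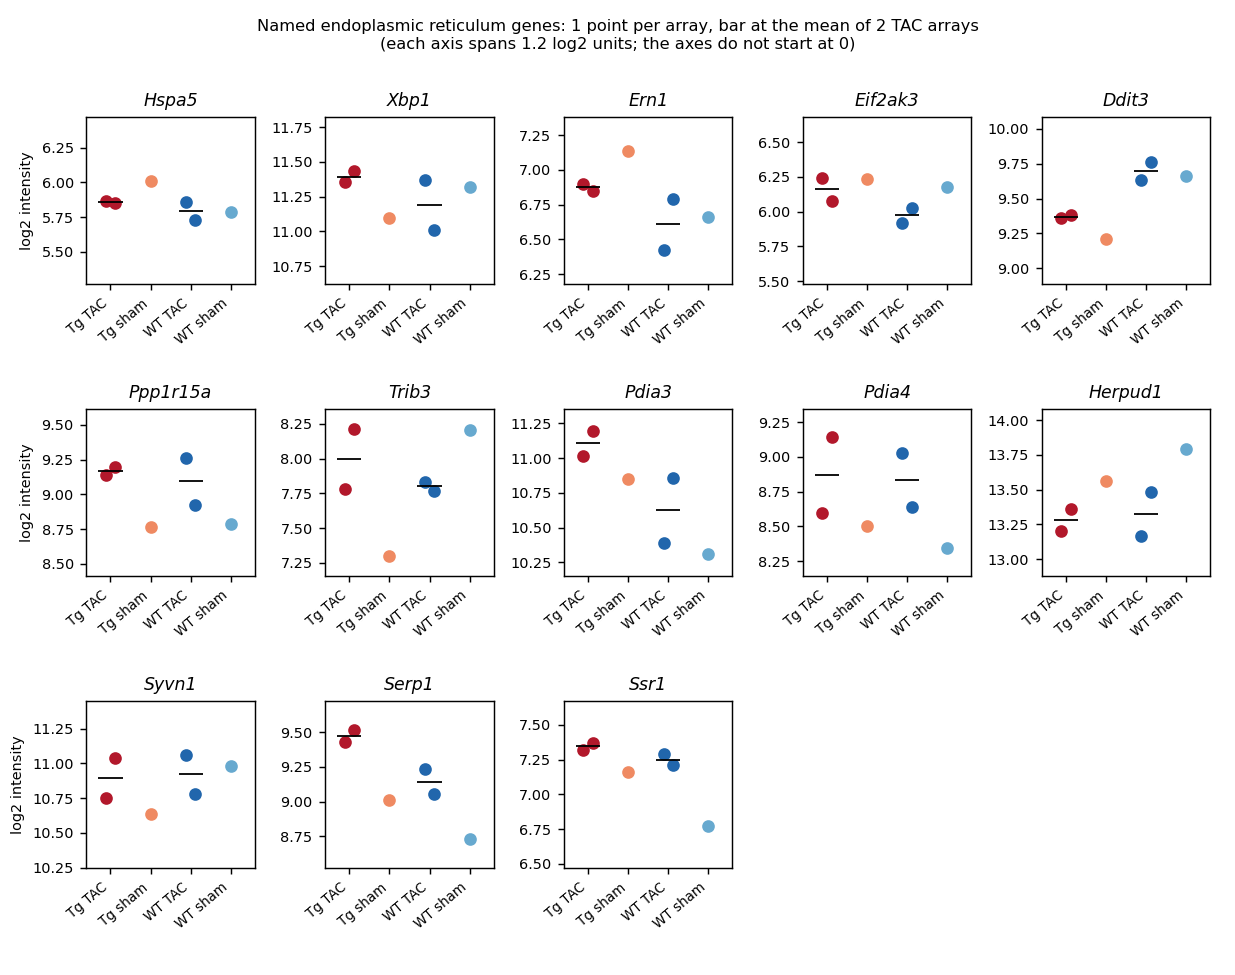
Log2 intensity of 13 endoplasmic reticulum genes, 1 point per array, with a bar at the mean of the 2 TAC arrays; Tg is transgenic and WT is wild type, and each panel spans the same width in log2 units from its own origin. In Ddit3 the 3 transgenic points lie below the 3 wild-type points, between 9.21 and 9.38 against 9.63 to 9.77, and in Herpud1 the sham points lie above the TAC points of their genotype.

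The next question was whether pressure load changed these genes. Comparing 4 TAC with 2 sham arrays in the same fit, 0 of the 25 genes passed an adjusted p of 0.05 in limma, against 1 of 11166 genes (0.00896%). An unadjusted p under 0.05 was reached by 4 of the 25 (16.0%), against 9.25% of all tested genes: Serp1, Ssr1 and Ppp1r15a were higher after TAC and Herpud1 was lower. TAC and sham arrays did not overlap for 8 of the 25 genes (32%), against 16.5% of all tested genes. Those were Sdf2l1, Pdia4, Ppp1r15a, Sel1l, Sec61b, Ssr1 and Serp1, higher after TAC, and Herpud1, lower. Second probes of Sel1l, Sec61b and Ssr1 gave -0.25, -0.06 and -0.01, so the rise of these genes was not shared by all their probes. That of Herpud1 was lower as well, at -0.44. The median log2 difference was 0.10, with 16 genes higher and 9 lower, against -0.01 over all tested genes. The 25 intervals of 95% lay between -0.64 and 0.87.

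The 3 translocation genes were all above both sham arrays after TAC. Serp1 encodes RAMP4, a small partner of the Sec61 channel. It was at 9.43 and 9.52 in transgenic TAC against 9.01 in transgenic sham, and at 9.23 and 9.06 in wild-type TAC against 8.73 in wild-type sham. The TAC values lay above both sham values, by 0.44 ± 0.14 (SE, 95% interval 0.11 to 0.76), or 1.35-fold, with a limma adjusted p of 0.415. The transgenic arrays were also higher than wild type of the same surgery, by 0.32 ± 0.13 (SE, limma adjusted p = 0.416).

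Ssr1, a subunit of the translocon-associated complex, was at 7.32 and 7.37 in transgenic TAC against 7.16 in transgenic sham, and at 7.29 and 7.21 in wild-type TAC against 6.78 in wild-type sham. Its low point was the wild-type sham array, and the log2 difference was 0.33 ± 0.14 (SE, limma adjusted p = 0.526). Without that array it was 0.19, which comes from the transgenic arrays alone. Sec61b, the beta subunit of the channel, differed by 0.27 ± 0.15 (SE, limma adjusted p = 0.634). Second probes of Ssr1 and Sec61b gave -0.01 and -0.06, so neither gene's difference was shared by its probes.

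Herpud1 encodes a membrane protein of the degradation complex and is known as a strong target of the response. It stood at 13.20 and 13.36 in transgenic TAC against 13.56 in transgenic sham, and at 13.17 and 13.48 in wild-type TAC against 13.80 in wild-type sham. All 4 TAC arrays lay below both sham arrays. The log2 difference was -0.38 ± 0.12 (SE, 95% interval -0.64 to -0.11), or 0.771-fold, with a limma adjusted p of 0.402. Without both low-Xist arrays it was -0.63, which is wild-type TAC 1 against wild-type sham only. A second bright probe gave -0.44, at 12.45 and 12.36 in transgenic TAC against 12.91 in transgenic sham, and at 12.30 and 12.69 in wild-type TAC against 12.87 in wild-type sham. The other 4 tested degradation genes, Syvn1, Sel1l, Derl2 and Edem1, lay between -0.04 and 0.12. Syvn1, the ubiquitin ligase Hrd1, was at 10.75 and 11.04 in transgenic TAC against 10.64 in transgenic sham, and at 11.06 and 10.78 in wild-type TAC against 10.98 in wild-type sham.

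Of the feedback genes of the PERK branch, Ppp1r15a encodes GADD34, which restores translation by directing a phosphatase to eIF2 alpha. It was at 9.14 and 9.20 in transgenic TAC against 8.76 in transgenic sham, and at 9.26 and 8.92 in wild-type TAC against 8.79 in wild-type sham. All TAC arrays were above both sham arrays, and the log2 difference was 0.35 ± 0.16 (SE, limma adjusted p = 0.538). Pdia4, the isomerase ERp72, was at 8.60 and 9.15 in transgenic TAC against 8.51 in transgenic sham, and at 9.03 and 8.64 in wild-type TAC against 8.34 in wild-type sham. The TAC arrays spanned more than the gap to the sham arrays, and the difference was 0.43 ± 0.20 (SE, limma adjusted p = 0.547).

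**Figure D3:**
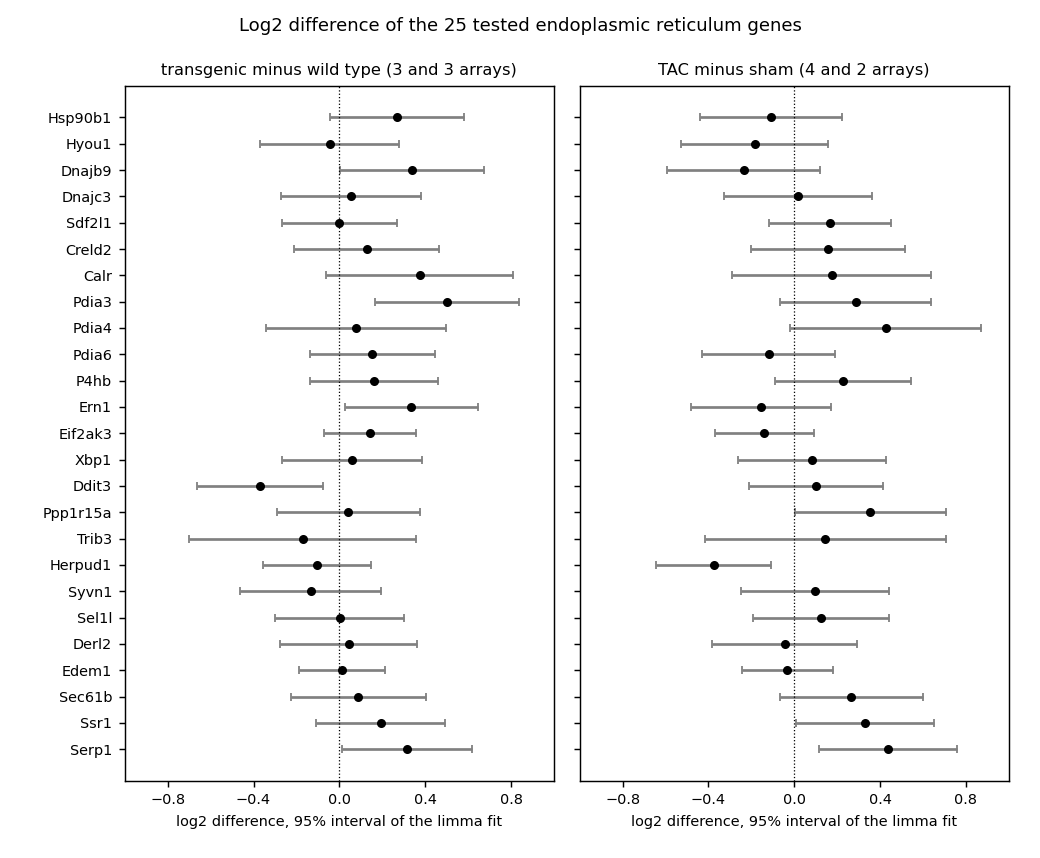
Log2 difference of each tested gene (point) with its 95% interval from the limma fit (bar), transgenic minus wild type on the left (3 and 3 arrays) and TAC minus sham on the right (4 and 2 arrays). The intervals of 20 of 25 genes on the left and 21 of 25 on the right contain 0, and Pdia3, at 0.50, and Herpud1, at -0.38, stand farthest from it relative to their error.

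Within the TAC arrays alone, 2 transgenic against 2 wild type, 0 of the 25 genes passed in limma against 23 of 11166 (0.206%). At an unadjusted p under 0.05 there was 1 (4.00%), compared with 5.76% of all. That gene was Pdia3, at 0.48 ± 0.20 (SE, 95% interval 0.02 to 0.95, limma adjusted p = 0.851). Leaving out wild-type TAC 1 gave 0.25, and leaving out wild-type TAC 2 gave 0.71. Ddit3 (-0.33 ± 0.19), Serp1 (0.33 ± 0.20) and Eif2ak3 (0.19 ± 0.12; all SE) had a limma adjusted p of 0.999, and Eif2ak3 was 0.11 without transgenic TAC 1. Groups did not overlap for 9 of the 25 genes (36%), against 32.3% of all tested genes, a share near the background. Between the 2 sham arrays, which allow no test, 0 of the 25 genes differed by log2 1 or more, against 1.04% of all. Trib3 was 0.91 lower in transgenic sham (-0.91), Ddit3 was at -0.45, and Pdia3, Dnajb9 and Ern1 were at 0.54, 0.48 and 0.48.

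Taken by genotype, TAC against sham gave 0 of 25 genes past limma's test in wild type and 0 in transgenic hearts, and 0.0% of all tested genes passed in either; both sham groups hold 1 array, assumed to vary like the TAC arrays. In transgenic hearts 1 gene had an unadjusted p under 0.05, against 4.86% of all: Trib3, at 0.70 ± 0.28 (SE, 95% interval 0.06 to 1.34, limma adjusted p = 0.991). In wild-type hearts 1 did, against 3.56% of all: Herpud1, at -0.47 ± 0.18 (SE, limma adjusted p = 1.00), and -0.31 without wild-type TAC 1. The median was 0.17 in transgenic hearts, with 17 genes higher after TAC and 8 lower, and -0.03 in wild type, with 12 higher and 13 lower. In 9 genes every TAC array lay above the sham array of its genotype: Sdf2l1, Creld2, Pdia3, Pdia4, Ppp1r15a, Sel1l, Sec61b, Ssr1 and Serp1. They made up 36% of the 25, against 15.2% of all tested genes. In 1 gene (4.00%), Herpud1, every TAC array lay below it, against 15.8% of all tested genes. In 2 genes (8.00%), Dnajc3 and Trib3, both transgenic TAC arrays lay above their sham array and both wild-type TAC arrays below theirs, against 8.11% of all tested genes, a share at the background.

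The TAC responses of the 2 genotypes were then compared. In limma 0 of the 25 genes passed, with 0.0% of all tested genes past the test, and 1 had an unadjusted p under 0.05, against 1.64% of all. That gene was Trib3, a pseudokinase induced by ATF4 and CHOP that restrains their output. It was at 7.78 and 8.21 in transgenic TAC against 7.30 in transgenic sham, and at 7.83 and 7.77 in wild-type TAC against 8.21 in wild-type sham. Both transgenic TAC arrays lay above their sham array and both wild-type TAC arrays lay below theirs, a difference of responses of 1.10 ± 0.39 (SE, 95% interval 0.20 to 2.01, limma adjusted p = 1.00). The transgenic sham array, the lowest of the 6, is 1 of the 2 with low Xist, and without it the difference cannot be fitted. With Xist as a covariate it was 0.91 (limma adjusted p = 1.00). In that fit the Xist term rests mostly on the wild-type TAC pair, where Xist was 10.50 and 5.38. The value therefore cannot separate sex from surgery in transgenic hearts. Trib3's dimmer probes gave TAC differences of -0.05 and 0.23 in transgenic hearts, against -0.28 and 0.09 in wild type. Xbp1 (0.43 ± 0.31), Syvn1 (0.32 ± 0.33) and Ssr1 (-0.29 ± 0.32; all SE) followed, each with a limma adjusted p of 1.00. The intervals of the difference had a median half-width of 0.76 on the log2 scale, so most could not show a difference of responses smaller than that.

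**Figure D4:**
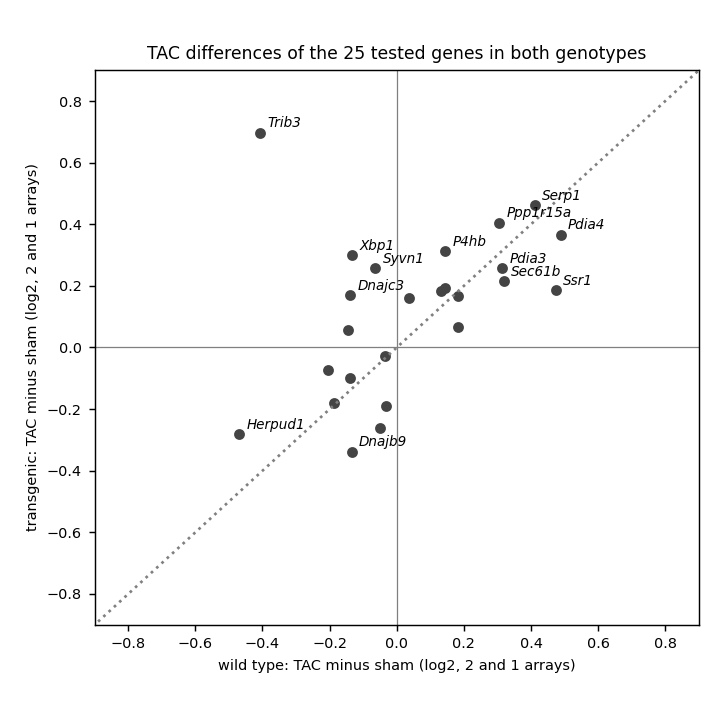
TAC minus sham on the log2 scale for each of the 25 tested genes in transgenic hearts (vertical axis) and wild-type hearts (horizontal axis), each from 2 TAC arrays and 1 sham array; the dotted line marks equal values. Trib3, at 0.70 in transgenic and -0.41 in wild-type hearts, lies farthest from the line; Xbp1, Syvn1, Dnajc3 and Derl2 also lie in the upper left, at 0.30, 0.26, 0.17 and 0.06 in transgenic hearts.

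Around the set, the other genes of the pathway were counted from lists drawn up with earlier results of these data known. Between genotypes, none of the 24 tested genes of other folding and redox steps passed in limma, with 18 higher and a median of 0.03. The same held for the 16 of other degradation steps (11 higher, median 0.05), the 31 of translocation and export (20 higher, median 0.05) and the 19 other sensors and effectors (7 higher, median -0.04). An unadjusted p under 0.05 was reached by 1, 0, 0 and 1 of them in that order, against 11.5% of all tested genes. After TAC the medians of these 4 lists were 0.06, -0.07, -0.02 and 0.04, and 0 passed. At an unadjusted p under 0.05 there were 3, 1, 1 and 3, against 9.25% of all tested genes. The smallest p after TAC were those of Qsox1, a sulfhydryl oxidase, at 0.33 ± 0.12, Rcn3, a calcium-binding protein of the lumen, at 0.53 ± 0.20, and Casp12, a caspase of the endoplasmic reticulum, at 0.27 ± 0.10 (SE, limma adjusted p of 0.457 for each).

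Of the ATF4 and amino acid response, 2 of 24 tested genes passed in limma between genotypes, both higher in transgenic hearts, against 0.949% of all tested genes. PERK activity was not read here. Mthfd2, a mitochondrial enzyme of one-carbon metabolism, was at 10.11 and 10.72 in transgenic TAC and 9.75 in transgenic sham, against 8.86 and 8.28 in wild-type TAC and 7.84 in wild-type sham (1.86 ± 0.21, SE, limma adjusted p = 0.00393). Asns, asparagine synthetase, was at 8.54 and 8.67 in transgenic TAC and 8.26 in transgenic sham, against 7.81 and 7.39 in wild-type TAC and 7.49 in wild-type sham (0.93 ± 0.16, SE, limma adjusted p = 0.0376). All transgenic arrays lay above all wild-type arrays in both. The list's median was 0.16, with 17 genes higher and 7 lower. The lowest was Stc2, at -0.58 ± 0.19 (SE, limma adjusted p = 0.273), with all transgenic arrays below all wild-type arrays. Of Ddit3 and Trib3, which ATF4 also raises, Ddit3 was lower too, at -0.37. Trib3 was at -0.17 with overlapping arrays, and its lower mean came from the sham arrays. It was at 7.30 in transgenic sham against 8.21 in wild-type sham. After TAC it was at 7.78 and 8.21 in transgenic against 7.83 and 7.77 in wild type. For TAC against sham 0 of the 24 passed in limma, and the median was 0.14. An unadjusted p under 0.05 was reached by 4 of them, against 9.25% of all tested genes.

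Heat shock genes, which respond to misfolded protein outside the endoplasmic reticulum, were higher in transgenic hearts for 16 of 17 tested genes, with a median of 0.17. Most of the list is cytosolic, but Hspd1 and Hspe1, at 0.32 and 0.48, encode mitochondrial chaperonins. None of the 17 passed in limma, and 4 had an unadjusted p under 0.05, against 11.5% of all tested genes. Hsp90aa1 was 0.66 ± 0.15 higher (SE, limma adjusted p = 0.103) and Hspa1a 1.09 ± 0.29 (SE, limma adjusted p = 0.149), with Hspa1a at 9.36 in the transgenic sham array against 7.20 to 7.96 on the other 5.

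The collagen and matrix genes, most of them cargo of this compartment, stood higher after TAC in 25 of 25 tested members, with a median of 0.82. The list also holds the collagen-modifying enzymes P4ha1, P4ha2, Plod1, Plod2 and Plod3, at 0.17, 0.003, 0.02, 0.32 and 0.31. None passed in limma, and 16 had an unadjusted p under 0.05, against 9.25% of all tested genes. Fibroblast markers, which share genes with that list, were higher in 11 of 11, with a median of 0.60 and summed intensities of 25448 to 37691 on TAC arrays, against 21074 to 22437 on sham arrays. Macrophage markers summed to 5190 to 6625 on TAC arrays, against 3772 to 5418 on sham arrays, with overlap. They summed to 5418 to 6625 in transgenic against 3772 to 5356 in wild type, without overlap. The tested macrophage genes were all higher in transgenic hearts, by 0.03 (C1qa) to 0.42 (Lyz2). Between genotypes the collagen and matrix list had a median of 0.04, with 14 genes higher and 11 lower, and the fibroblast sums overlapped, at 22437 to 37691 in transgenic against 21074 to 34058 in wild type. Smooth muscle markers summed to 16667 to 21530 in transgenic against 22450 to 33090 in wild type, without overlap. That separation of the sums rests on Acta2, the smooth muscle actin. On the log2 scale it was at 11.40 to 11.87 in transgenic against 13.01 to 13.91 in wild type. Acta2 fell by 1.67 ± 0.23 (SE, limma adjusted p = 0.0118). Smtn and Tagln also had all transgenic arrays below all wild-type arrays. They were at -0.60 ± 0.18 and -0.43 ± 0.15 (SE, limma adjusted p of 0.203 and 0.295). Of the 7 tested smooth muscle genes 6 were lower, with a median of -0.43, and Des was 0.08 higher. Endothelial markers were lower in 7 of 8 tested genes, with a median of -0.23 and overlapping sums of 13216 to 19196 in transgenic against 15841 to 19085 in wild type. The part of these cell types in the values above was not tested.

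**Figure D5:**
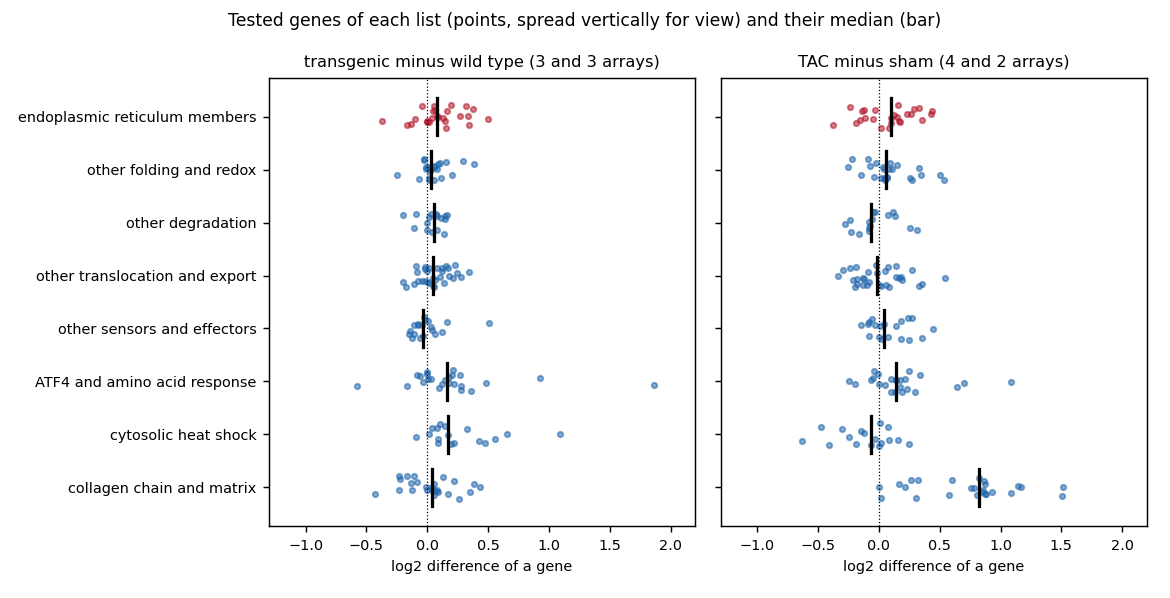
Log2 difference of each tested gene (point) of the endoplasmic reticulum set and of 7 related lists, with the list's median as a bar, transgenic minus wild type on the left and TAC minus sham on the right. The median of the set is 0.08 on the left and 0.10 on the right, and that of the collagen and matrix list is 0.82 on the right. The list drawn as cytosolic heat shock also holds the mitochondrial Hspd1 and Hspe1.

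The same fits were then read by promoter element. Dnajc3, the BiP cochaperone P58IPK, was at 8.50 and 8.53 in transgenic TAC and 8.35 in transgenic sham, against 8.40 and 8.32 in wild-type TAC and 8.50 in wild-type sham. Creld2, a stress-induced protein of the lumen, was at 8.73 and 9.02 in transgenic TAC and 8.69 in transgenic sham, against 8.85 and 8.62 in wild-type TAC and 8.60 in wild-type sham. Pdia6, the isomerase P5, was at 6.67 and 7.00 in transgenic TAC and 6.93 in transgenic sham, against 6.68 and 6.64 in wild-type TAC and 6.81 in wild-type sham. The genotypes overlapped in all 3, which differed by 0.05 ± 0.14, 0.13 ± 0.15 and 0.15 ± 0.13 (SE, limma adjusted p of 0.934, 0.813 and 0.716 in that order). Hsp90b1 was at 11.48 and 11.89 in transgenic TAC and 11.87 in transgenic sham, against 11.35 and 11.57 in wild-type TAC and 11.49 in wild-type sham. Calr was at 9.61 and 8.98 in transgenic TAC and 9.13 in transgenic sham, against 9.13 and 8.72 in wild-type TAC and 8.75 in wild-type sham. In each of these genes at least 1 transgenic array lay within the wild-type range. Of the 8 genes with the first element, 6 were tested, and 5 were higher and 1 lower in transgenic hearts, with a median of 0.14. After TAC 4 were higher and 2 lower, with a median of 0.06, and 0 of 6 had an unadjusted p under 0.05 in either comparison. Of all 37 genes with the element 13 were tested, with medians of 0.05 between genotypes and 0.10 for TAC, and 0 passed in limma. At an unadjusted p under 0.05 there were 1 and 2, against 11.5% and 9.25% of all tested genes.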

How the data were processed

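Total RNA of mouse hearts was hybridised to 6 Illumina arrays as biotinylated cRNA, per the labels' protocols. The authors deposited 1 linear intensity per probe and array, and no source used here names their software, background step or normalization. The median intensity was 56.3 to 56.4 per array, and columns once sorted differed by no more than 0.0064 in log2 units, as quantile normalization leaves them. That scale was kept. A floor of 32 replaced 12 lower values before taking log2, without background subtraction, so differences of dim genes are understated. The number of arrays limits the precision.

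The platform annotation gave 1 symbol to 34885 of 45281 probes, several to 18 and none to 10378. Each gene took its brightest probe, and 11166 genes above the 50th percentile of probes with 1 symbol (intensity 58.7) were tested. 17 of the genes of interest had more than 1 probe. Moderated linear models (limma 3.58.1 in R 4.3.3; lmFit, eBayes, trend on) were adjusted by Benjamini-Hochberg across all 11166 genes, at a threshold of 0.05. The model of surgery plus genotype had 3 residual and 6.14 prior degrees of freedom, and that of the 4 groups had 2 and 6.25. The steps were tested on simulated data.

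Values on every array are given for Hspa5, Xbp1 and Ddit3, for members past a test and for the 4 smallest p of each comparison; others, and second probes, were named after their values were seen. The genes, lists and tests were chosen with earlier results of these data known. TAC replicate numbers occur in both genotypes, but the TAC 1 minus TAC 2 difference correlated at -0.03 between them, so numbers were not taken as pairs. Alternatives changed the probe rule, filter, trend, background, normalization, arrays left out, Xist as a covariate and a replicate block.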

Additional observations from a re-analysis of the deposited data

Results flagged for a closer look

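Trib3 had a difference of TAC responses, transgenic minus wild type, of 1.10 on the log2 scale (SE 0.39). It drew attention because both transgenic TAC arrays lay above their sham array and both wild-type TAC arrays below theirs, with an unadjusted limma p of 0.0223. Dnajc3 shared that pattern of arrays, with a difference of responses of 0.31 (SE 0.35), and 8.11% of all tested genes showed it. It failed the correction over 11166 genes, with an adjusted p of 1.00. Without 1 array at a time, where this difference could be fitted, it lay between 0.89 and 1.32, and with the median over its probes it was 0.24.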

How the results depend on the processing

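The count of endoplasmic reticulum genes past limma's test was 0 in every comparison under every setting that could be fitted, namely another probe rule, no trend, other filters, normexp background, cyclic loess, 1 array left out at a time, both low-Xist arrays left out, Xist as a covariate and the replicate block. The smallest adjusted p among them was 0.0747, in a fit without 1 array for TAC against sham in transgenic hearts, and that without 1 array between genotypes was 0.0828. A total of 6 named values changed sign. With the median over a gene's probes, Ern1 between genotypes was -0.0339, Ssr1 for TAC was -0.0397 and Trib3 for TAC in transgenic hearts was -0.0446. With Xist as a covariate, Herpud1 for TAC in transgenic hearts was 0.0212, and the difference of TAC responses was -0.12 for Xbp1 and -0.16 for Syvn1. The cause of these sign changes was not tested. In the fits of 4 groups the Xist term rests mostly on the wild-type TAC pair. Such fits cannot separate sex from surgery in transgenic hearts. For TAC against sham in the fit of surgery plus genotype, the median of the genes was -0.03 without the transgenic sham array. That value comes from the wild-type arrays alone. The median for the difference of TAC responses was -0.08 with Xist as a covariate.

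Without both low-Xist arrays Pdia3 between genotypes was 0.71, Ddit3 -0.26, and for TAC Herpud1 was -0.63 and Serp1 0.50. In that fit the genotype term sets the transgenic TAC pair against wild-type TAC 1 only. The TAC term sets wild-type TAC 1 against wild-type sham only. Without 1 array, Pdia3 between genotypes ranged over 0.37 to 0.64 and Ddit3 over -0.42 to -0.33. For TAC, Herpud1 ranged over -0.47 to -0.28, Serp1 over 0.40 to 0.48 and Ssr1 over 0.19 to 0.47. Leaving out a sham array takes the TAC term from the other genotype alone, which gives both ends for Herpud1 and Ssr1. Pdia3 after TAC ranged over 0.25 to 0.71 and Eif2ak3 after TAC over 0.11 to 0.27. Within wild type, Pdia4 ranged over 0.29 to 0.68, and the difference of TAC responses over 0.25 to 0.61 for Xbp1 and 0.18 to 0.47 for Syvn1. With the replicate block, 0 of the genes passed, and over all tested genes 52 passed between genotypes after TAC against 23 without it, and 4 against 0 for TAC in wild type. Leaving out a sham array removes the comparison within its genotype, and leaving out both low-Xist arrays removes that within transgenic hearts. Signal near background limits Hspa5, Manf, Canx, Atf6 and Derl1.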
